A study of Sus scrofa with 6 samples.

Results

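The microRNAs miR-451 and miR-486, listed as ssc-miR-451 and ssc-miR-486, are abundant in red blood cells and their precursors, and are described here in the liver of newborn Erhualian (EHL) and Large White (LW) piglets. They were taken by row name from the miRNA microarray table, 2 of 236 rows with a pig miRNA name among 336 rows in all, and both had a value on all 6 arrays. EHL is an indigenous Chinese pig breed and LW is a Western breed. Each breed was represented by 3 arrays, and each array received the pooled liver RNA of 2 male littermates killed immediately after birth by exsanguination, so that 6 piglets from 3 litters stood behind each breed. No treatment was given. The piglets came from neighbouring breeding farms, and the sources used here do not say which breed came from which farm, so breed and farm cannot be told apart. Values are fluorescence intensities of a single dye, background-subtracted and LOWESS normalized by the authors, and are called signals here.

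MicroRNAs are short RNAs that lower the stability or translation of messenger RNAs. The gene of miR-451 is transcribed together with that of miR-144 under the erythroid transcription factor GATA1, and mature miR-451 is made by Ago2 without Dicer and accumulates as red cells mature. The gene of miR-486 lies within ANK1, which encodes the ankyrin of the red cell membrane, and the miRNA is also found in muscle. Fetal liver is a site of red cell formation, and this activity declines around birth. A liver sample therefore holds hepatocytes, blood and possibly red cell precursors. In RNA from whole liver, fewer cells of a type and less RNA per cell cannot be told apart. In the RefSeq annotation of Sscrofa11.1, MIR144 is the miRNA gene next to MIR451, both lie within the annotated span of ERAL1, and MIR486-1 lies within that of ANK1. The array carried no row named miR-144 or miR-144*.

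The arrays differed in how closely they followed the other arrays of their breed. Between 101 and 134 miRNAs had a value on each array. Over the 96 named rows listed on all 6 arrays, the median absolute difference from the mean of the other 2 arrays of the breed was 0.47 on the log2 scale for EHL array 1, which was the largest of the 6, and 0.25 for LW array 2, which was the smallest. EHL array 1 had a Pearson's r across these miRNAs of 0.939 with EHL array 2 and 0.913 with EHL array 3, while the 3 LW arrays had values between 0.960 and 0.988. These correlations are across miRNAs, which are not independent replicates. The labelled tissue was checked by miR-122, the main miRNA of hepatocytes, which had a signal between 18287 and 28071 on every array.

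The signal of miR-451 was 220, 100 and 134 on LW arrays 1, 2 and 3, and 376, 54 and 63 on EHL arrays 1, 2 and 3. EHL array 1 was thus the highest of all 6 arrays and the other 2 EHL arrays were the lowest, so that the 3 LW arrays lay inside the range of EHL. The signal of EHL array 1 was 6.96 times that of EHL array 2 and 5.97 times that of EHL array 3, while the 3 LW arrays spanned a range of 2.2-fold. On the log2 scale the mean was 7.16 ± 0.58 (SD, n = 3) for the LW arrays and 6.76 ± 1.56 (SD, n = 3) for the EHL arrays.

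The signal of miR-486 was 29, 24 and 25 on LW arrays 1, 2 and 3, and 34, 24 and 22 on EHL arrays 1, 2 and 3. Again EHL array 1 was the highest and LW array 1 the next, and the breeds overlapped. The range was much narrower than for miR-451, with 1.55-fold between the highest and the lowest of the 6 arrays against 6.96-fold. On the log2 scale the mean was 4.70 ± 0.14 (SD, n = 3) for the LW arrays and 4.71 ± 0.33 (SD, n = 3) for the EHL arrays. miR-486 was dim, with signals 1.5 to 3.09 times the dimmest miRNA signal on the same array, against 3.38 to 34.2 times for miR-451. Both ratios set different probes against each other, so they show nearness to the low end of an array and not relative amounts.

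**Figure D1:**
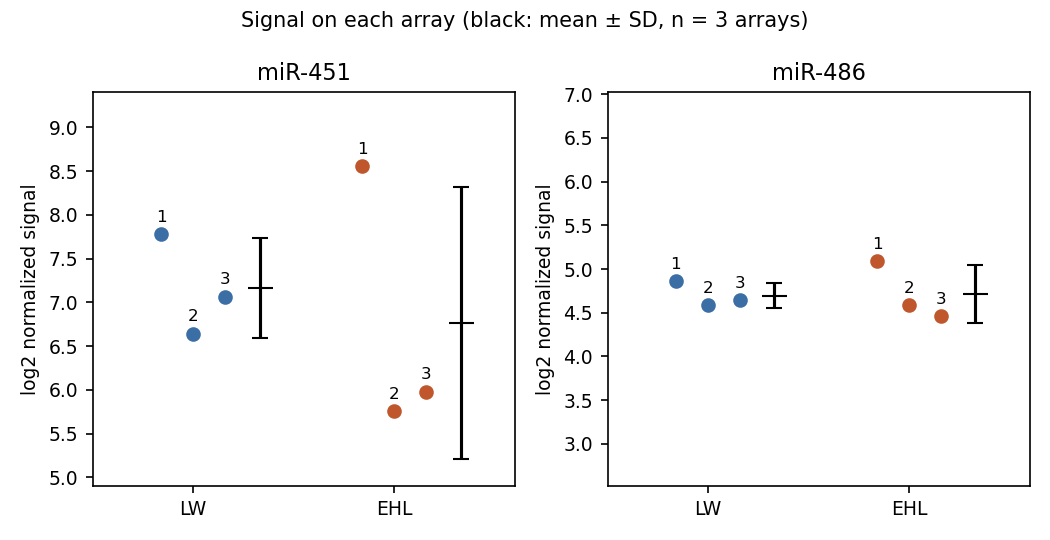
Log2 normalized signal of miR-451 (left) and miR-486 (right) on the 3 LW (blue) and 3 EHL (orange) arrays, with array numbers at the points and the mean ± SD of 3 arrays in black; both axes span the same number of log2 units. EHL array 1 is the highest point in both panels, at 376 and 34 on the linear scale, and the 2 other EHL arrays lie far below it for miR-451.

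Compared to LW, neither miRNA differed in EHL beyond the spread between arrays. For miR-451 the EHL arrays lay at -0.40 relative to LW on the log2 scale (standard error 0.67), with a 95% confidence interval from -1.92 to 1.12 and an adjusted p of 0.833 by limma with Benjamini-Hochberg adjustment. This interval reaches from 0.264-fold to 2.17-fold, so that both a lower and a higher level of miR-451 in EHL lie inside it. The direction turned with the scale, since the ratio of the mean linear signals, 164 in EHL and 151 in LW, was 0.12 in log2 units. For miR-486 the log2 ratio was 0.015 (standard error 0.27), with an interval from -0.59 to 0.62, or 0.665-fold to 1.53-fold, and an adjusted p of 0.974. Exact two-sided permutation tests gave p = 0.7 for miR-451 and p = 0.9 for miR-486, where 3 arrays against 3 cannot give a p below 0.1. At the FDR of 15% that the study's methods use, limma called 1 of the 109 miRNAs tested, or 0.917%, and neither miR-451 nor miR-486 was that miRNA, which was miR-184. The breeds did not overlap for 18 of the 96 miRNAs listed on all 6 arrays, or 18.8%, with 7 of them, or 7.29%, lower in EHL, and they overlapped for both miR-451 and miR-486.

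The breed ratio of miR-451 rested on EHL array 1. When each array was left out in turn, the fit without EHL array 1 gave a log2 ratio of -1.30 (standard error 0.35), with an interval from -2.06 to -0.54 and an adjusted p of 0.0333 by limma. The remaining EHL arrays, at 54 and 63, then lay below all LW arrays, and LW was 2.46-fold higher, with an interval from 1.45-fold to 4.16-fold. This fit left out the array that departed most from its breed for miR-451, and the standard error fell from 0.67 to 0.35. No exact permutation test was run on these arrays, so the interval and the adjusted p rest on limma alone. The same fit called 24 of 97 miRNAs, or 24.7%, with 9 of them, or 9.28%, lower in EHL, so the call of miR-451 came in a fit with many calls. Without EHL array 1 the breeds did not overlap for 37 of 96 miRNAs, or 38.5%, with 13 of them, or 13.5%, lower in EHL. For miR-486 the log2 ratio without this array was -0.17 (standard error 0.29, interval from -0.79 to 0.45, adjusted p = 0.766 by limma), and EHL array 2 had the same signal of 24 as LW array 2. Leaving out another array also moved the value of miR-451, to -0.093 without LW array 1, -0.66 without LW array 2, 0.10 without EHL array 2 and -0.0090 without EHL array 3, and it was called in none of these fits.

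**Figure D2:**
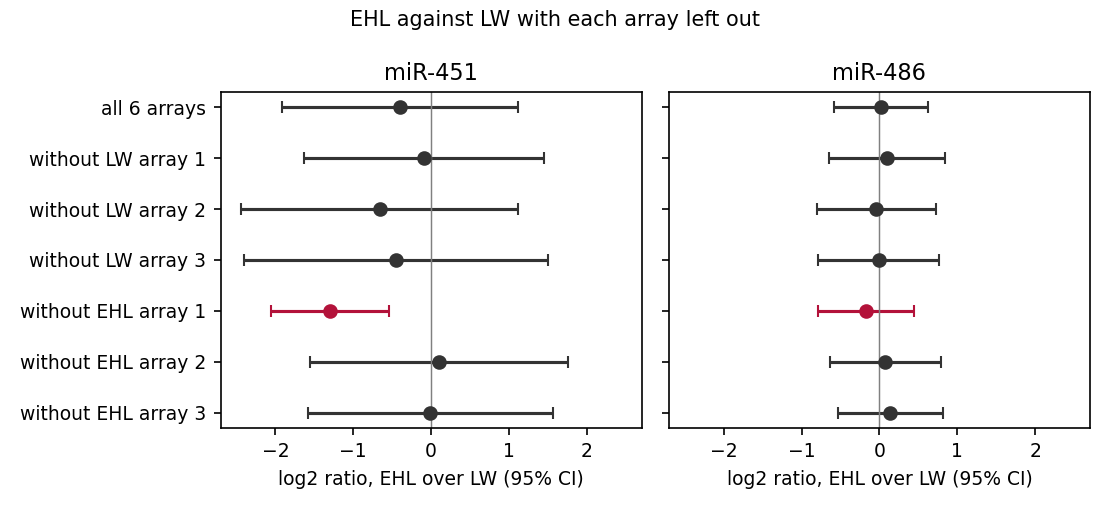
Log2 ratio of EHL over LW by limma with its 95% confidence interval, for all 6 arrays and with each array left out, for miR-451 (left) and miR-486 (right); the fit without EHL array 1 is in red. The interval of miR-451 lies wholly below 0 in that fit, from -2.06 to -0.54, and crosses 0 in the others, as do those of miR-486.

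EHL array 1 departed from its breed more for miR-451 than for any other of the 96 miRNAs listed on all arrays. Its log2 signal lay 2.69 above the mean of the other 2 EHL arrays, a 6.45-fold difference, while the median over the 96 miRNAs was -0.24. Centring each array on its median gave 2.71. It shifts all miRNAs of an array alike, so it cannot change the rank. For miR-486 the same difference was 0.57, a 1.48-fold difference, which placed it at 13 from the top. miR-451 also varied between the LW pools, where LW array 1 lay 0.93 above the mean of the other 2 and ranked 3 from the top. The SD of the log2 signal of miR-451 ranked 8 of 96 in LW and 2 of 96 in EHL, against a median SD of 0.27 in LW and 0.36 in EHL. The SD of miR-486 ranked 84 and 56.

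In all, 8 of the 96 miRNAs on EHL array 1 lay more than 1 log2 unit above the mean of the other 2 EHL arrays. Another 5 lay more than 1 below that mean. Beside miR-451, the 8 were miR-424, miR-215, miR-21, miR-345-3p, miR-4334, miR-204 and miR-148a. Of these, miR-215, miR-21 and miR-204 were named after their values were seen. The difference was 2.57 for miR-424 and 1.45 for miR-148a, a miRNA abundant in hepatocytes. On EHL array 3, 6 miRNAs lay more than 1 above the mean of the other 2 arrays of the breed, and 8 more than 1 below it. EHL array 1 was thus not alone in having miRNAs that far apart.

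**Figure D3:**
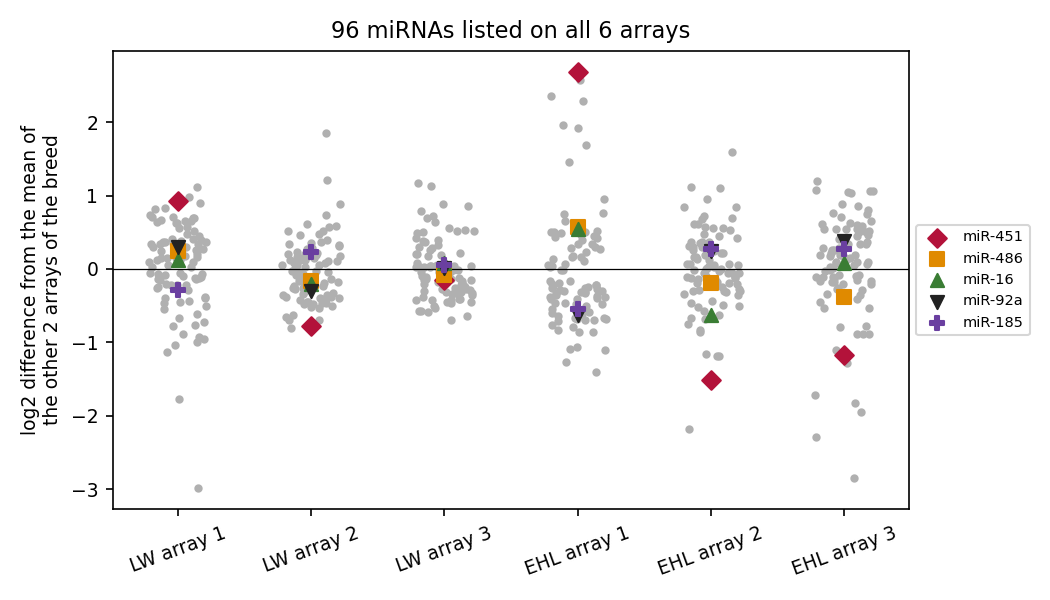
Log2 difference of each array from the mean of the other 2 arrays of its breed, for the 96 miRNAs listed on all 6 arrays (grey points, spread sideways at random for visibility), with miR-451, miR-486, miR-16, miR-92a and miR-185 marked. miR-451 is the highest point on EHL array 1, at 2.69, and lies near the bottom on EHL array 2.

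miR-451 and miR-486 followed each other from array to array. On both, EHL array 1 was the highest, LW array 1 the next and LW array 3 the one after, and the lowest value was that of EHL array 2 for miR-451 and of EHL array 3 for miR-486. Over the 6 arrays their log2 signals had a Pearson's r of 0.939 (exact permutation p = 0.0167, two-sided) and a Spearman's rho of 0.899 (exact permutation p = 0.0278, two-sided). This was the only relation tested and no adjustment was made, but the 2 miRNAs were chosen with earlier results of these data known, so these p-values are not those of a pair chosen blind to the data. Without EHL arrays 1 and 2, the arrays farthest from the median of miR-451, r was 0.987 over 4 arrays, where the exact permutation p of 0.0833 is the smallest that 4 arrays allow. With each array centred on its median, r was 0.932 (exact permutation p = 0.0139). Each breed has too few arrays for a correlation within it.

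Among the 95 other miRNAs listed on all 6 arrays, miR-486 had the highest r with miR-451, and miR-451 had the highest r with miR-486. This ranking was chosen once the values were known and is a description. The next after miR-486 in the ranking for miR-451 was miR-106a, with 0.936, so the top place was held by a narrow margin, and the median r over the 95 was -0.16. The relation concerns the order and the direction of the pools, since the log2 range of miR-451 over the 6 arrays was 2.80 and that of miR-486 was 0.63.

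**Figure D4:**
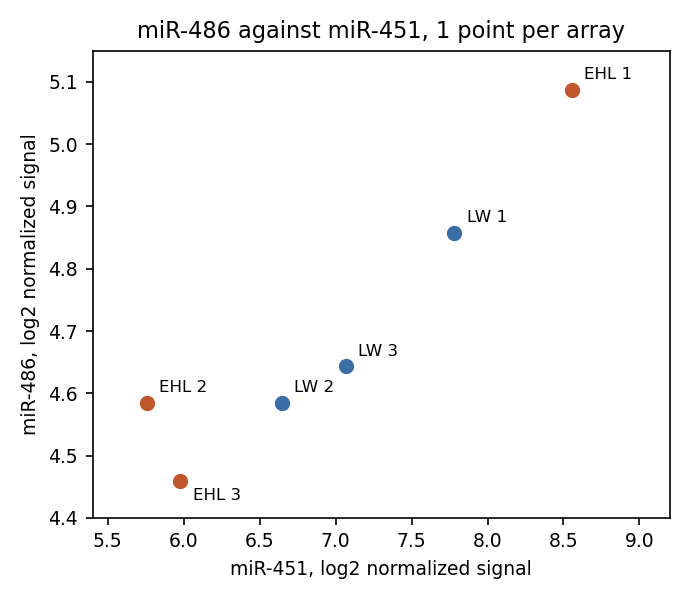
Log2 normalized signal of miR-486 against that of miR-451, with 1 point per array, LW in blue and EHL in orange. The points run from EHL arrays 2 and 3 at the lower left through the LW arrays to EHL array 1 at the upper right, with r of 0.939; the vertical axis covers a much smaller log2 range than the horizontal one.

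When likeness was measured by the root-mean-square difference of the profiles after the mean of each row was taken off, which counts the size of the changes as well, the miRNAs nearest to miR-451 over the 6 arrays were miR-345-3p (0.50), miR-424 (0.70), miR-148a (0.73), miR-4334 (0.74) and miR-20 (0.76), against a median of 1.09 over the 95. By this measure miR-486 came at place 8 for miR-451, and miR-451 at place 88 of 95 for miR-486. The signal of miR-345-3p was 66, 81 and 65 on the LW arrays and 107, 25 and 30 on the EHL arrays, so that it too was highest on EHL array 1 and lowest on the other 2 EHL arrays. The miRNAs nearest to miR-486 were miR-17-5p (0.11), miR-106a (0.12), miR-16 (0.19), miR-30a-5p (0.19) and miR-192 (0.22), against a median of 0.44. The signal of miR-106a was 616, 474 and 474 on the LW arrays and 584, 403 and 421 on the EHL arrays, which put LW array 1 and EHL array 1 above the rest.

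Other miRNAs abundant in red cells did not all share this pattern. Of 9 names on the list, 5 had a row by exact name, of which miR-363 was blank on all arrays and miR-15a was listed on 4. The signal of miR-15a was 20, 33 and 18 on the LW arrays and 56 on EHL array 1, and it was blank on EHL arrays 2 and 3, where a blank gives no level. The gene of miR-15a neighbours one of the genes of miR-16. The signal of miR-16 was 495, 426 and 485 on the LW arrays and 642, 372 and 517 on the EHL arrays, so that EHL array 1 was again the highest and EHL array 2 the lowest, within a narrow range. EHL array 1 was the highest of the 6 arrays for 13 of the 96 miRNAs listed on all of them, or 13.5%, a count that ranged from 10 to 29 over the 6 arrays.

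miR-92a, a member of the miR-17 to miR-92 group, and miR-185 ran the other way among the EHL arrays. The signal of miR-92a was 8411, 6361 and 7359 on the LW arrays and 4862, 7280 and 7767 on the EHL arrays, with EHL array 1 the lowest of the 6. The signal of miR-185 was 95, 121 and 111 on the LW arrays and 143, 209 and 209 on the EHL arrays, so EHL array 1 was the lowest of its breed while every EHL array was above every LW array. Of the 3 list members tested, limma called 0 at the FDR of 15% and 1, miR-185, had an unadjusted p under 0.05, against 13 of all 109 miRNAs tested, or 11.9%. The SAM statistic called none of the 3 under the rule reported here for its constant s0, which was settled after counts of calls had been seen. It called miR-185, higher in EHL, at 5 of 7 fixed values of s0. At each of these it called 7 or 8 of all 109 miRNAs, all higher in EHL. Their log2 ratios of EHL to LW were 0.091 for miR-16, -0.17 for miR-92a and 0.76 for miR-185, with a median of 0.091 against 0.025 over the 109 miRNAs tested. Without EHL array 1, miR-185 was called higher in EHL (log2 ratio 0.95, adjusted p = 0.0466 by limma), in a fit that called 15 of all 97 miRNAs, or 15.5%, higher in EHL, the other 2 were not, and the median was 0.037. The name miR-22 had no row of its own, but miR-22-3p and miR-22-5p did, and they were added after values were seen. miR-22-5p was listed on too few arrays to be tested. The signal of miR-22-3p was 44, 34 and 50 on the LW arrays and 42, 27 and 33 on the EHL arrays. By limma it was called neither over all 6 arrays (log2 ratio -0.33, adjusted p = 0.706) nor without EHL array 1 (-0.50, adjusted p = 0.347). With it the median of the list was -0.041 over all 6 arrays and -0.028 without EHL array 1, so the sign of the median depends on this name. The study itself chose miR-185 on these arrays, so its direction on them is not independent evidence. The study also measured miR-185 by RT-qPCR on RNA of each piglet, which was not analysed here.

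**Figure D5:**
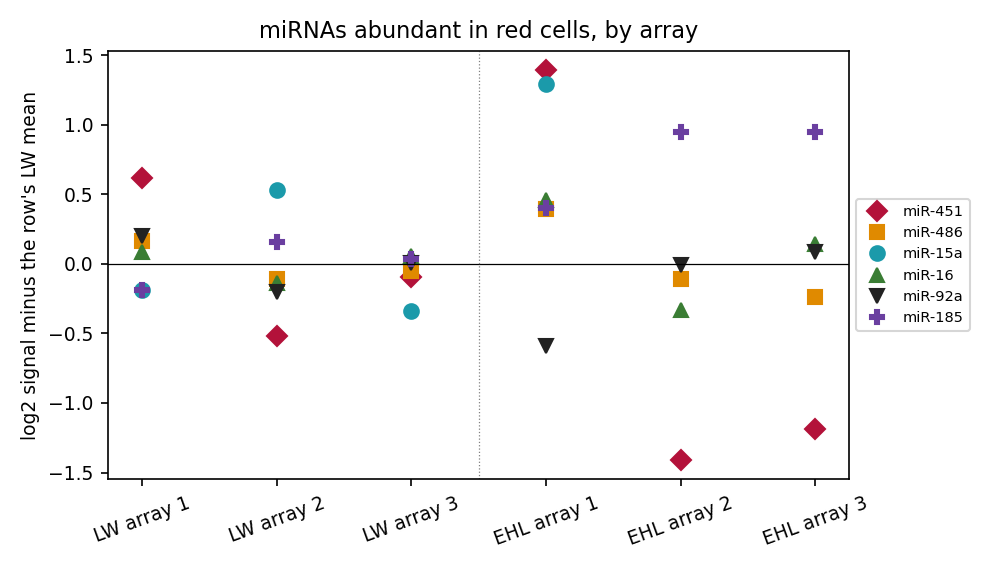
Log2 signal of miRNAs abundant in red cells on each array, relative to the mean of the same row over the LW arrays (0), with LW left and EHL right of the dotted line; miR-15a has no value on EHL arrays 2 and 3. On EHL array 1, miR-451 and miR-15a lie above 1 and miR-92a lies below 0, and on EHL arrays 2 and 3 miR-451 lies below -1.

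Markers of other cells of the liver were set beside these values. Of 9 names for white blood cells, 5 had a row. Of these, miR-155 and miR-146a were blank on all arrays, miR-142 and miR-146b were listed only on EHL array 3, both at 12, and miR-181a was listed on all 6. The signal of miR-181a, the brightest row of this list, was 505, 286 and 285 on the LW arrays and 215, 272 and 512 on the EHL arrays, so it was lowest on EHL array 1, where miR-451 was highest. Among the LW arrays, however, LW array 1 was the highest for both miR-181a and miR-451. The summed signal of the red cell list without miR-451 and miR-486, most of it from miR-92a, was 9021, 6941 and 7973 on the LW arrays and 5703, 7861 and 8493 on the EHL arrays. That of the hepatocyte list, most of it from miR-122, was 33047, 25006 and 28891 on the LW arrays and 28537, 24346 and 24163 on the EHL arrays, with miR-194 blank on all 6.

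On EHL array 1, all 4 hepatocyte miRNAs listed on every array lay above the mean of the other 2 EHL arrays, with a median difference of 0.47 on the log2 scale, and so did miR-126 of endothelium, with 0.45. The 3 miRNAs of stellate and other mesenchymal cells, miR-199a-3p, miR-199a and miR-214, lay below it, with a median of -0.32, though miR-199a-3p by only 0.017. With miR-199a* and miR-199b*, added after their values were seen, 4 of 5 lay below, with a median of -0.26, and miR-199b* lay 0.16 above. miR-143-3p and miR-145 of smooth muscle lay below, with a median of -0.59. Over all 96 miRNAs 39 lay above, with a median of -0.24. The part of the makeup of the tissue, of the blood left in it or of the array itself in the signal of miR-451 on EHL array 1 was not tested. In the comparison of the breeds over all 6 arrays, limma called 0 of the 11 miRNAs tested on the lists other than that of red cells, with 1 of them, miR-885-5p, at an unadjusted p under 0.05, against 1 of 109, or 0.917%, called and 13 of 109, or 11.9%, at that p over all miRNAs tested, and SAM called none of them under any s0 tried. Without EHL array 1, the fit in which miR-451 was called, limma also called 2 of these 11, miR-885-5p of hepatocytes lower in EHL (log2 ratio -0.88, adjusted p = 0.0831) and miR-143-3p of smooth muscle higher (0.77, adjusted p = 0.108), against 24 of all 97 miRNAs, or 24.7%, called in that fit.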

How the data were processed

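Liver miRNA was measured on 6 single-colour arrays with probes for the pig miRNAs of miRBase. The authors subtracted the background, normalized by LOWESS and deposited 1 fluorescence intensity per row and array, on a linear scale with blank cells. Undetected miRNAs are ascribed to low fluorescence, but no threshold for a blank was found. The intensities were converted to log2 without further normalization, filling or pseudocount. EHL was compared with LW in R 4.3.3 by limma 3.58.1 (lmFit and eBayes, breed as the only term) over the named rows listed on 2 or more arrays per breed. A miRNA was called at a Benjamini-Hochberg adjusted p below 0.15. The 100 rows with an LRS label were tested only as an alternative. SAM was recomputed with 20 relabellings of the arrays. Its constant s0 follows the rule of samr over 100 bins. A first version used 10 bins, and the rule was changed after calls had been counted under both and at 7 fixed percentiles, with the study's own count known and the first count seen to be lower. Other calculations used Python 3.11.15 with scipy 1.17.1.

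The members and the marker lists were chosen with earlier results of these data known. The miRNAs named were the 2 members, the marker lists and the 5 nearest profiles of each member. miR-184 was named as the miRNA that limma called, and others are said to be named later. The number of arrays limits the precision. No mature sequence of the 2 miRNAs was analysed here. Alternatives changed the test (SAM), the model (a replicate block, array weights, a trended and robust fit), the normalization (quantile, centring on the median), the rows tested (on all 6 arrays, a mean signal of 32 or more, no filter, with the LRS rows), blank cells (at the dimmest signal of the array), the threshold (0.05), the scale (mean linear signals) and the arrays (each left out). Counts of markers and of miRNAs without overlap were also taken without EHL array 1, which was added once the values were known, as was the matching of marker names with an arm suffix or a star.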

Additional observations from a re-analysis of the deposited data

How the results depend on the processing

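By limma 1 miRNA was called. SAM called 4, all higher in EHL, but this count depends on its constant s0, whose rule was settled after counts had been seen. It was 1 with s0 chosen over 10 bins or at percentile 0, 8 at percentiles 5, 10 and 25 and at the median, 7 at percentile 75 and 4 at percentile 100, and neither miR-451 nor miR-486 was called under any of these. Array weights called 7 and the test with the LRS rows 2. The replicate block called 0, with 8 at an unadjusted p under 0.05, and quantile normalization called 0, with 11. With each array left out in turn, from 0 to 24 were called, with 24 without EHL array 1, 2 without LW array 1, and 0 without LW array 3 or EHL array 2, where 5 and 10 had an unadjusted p under 0.05. The log2 ratio of miR-451 was -0.40, and 0.12 as the ratio of mean linear signals, in which EHL array 1 weighs more. With each array left out it ranged from -1.30 without EHL array 1, the only alternative run that called it, to 0.10 without EHL array 2, and the adjusted p over its alternatives ranged from 0.0333 to 0.997. Quantile normalization moved it to -0.70, uncalled. That of miR-486 was 0.015, and -0.028 with median centring and -0.30 with quantile normalization. With each array left out it ranged from -0.17 to 0.14, and its adjusted p was never below 0.697 in any alternative run. The cause of these changes between settings was not tested. With the mean signal of at least 32, miR-486 was not tested. Under the other alternatives run, both kept their direction and stayed uncalled. The correlation of the members was 0.987 without the 2 arrays farthest from the median of miR-451, where too few arrays remain to reach a p of 0.05. The replicate block left both log2 ratios as they were (-0.40, adjusted p = 0.889, and 0.015, adjusted p = 0.980). The deviations from the breed means of arrays 1, 2 and 3 of LW and EHL correlated at -0.50, -0.011 and -0.66 across miRNAs. These values cannot show whether arrays that share a number are pairs, since miRNAs are not independent replicates. Each array held a different litter, and the sources used here name no pairing between the breeds. With marker names matched with an arm suffix or a star, the median of the red cell list was -0.041 in place of 0.091. On EHL array 1, 4 of 5 mesenchymal miRNAs in place of 3 of 3 then lay below the mean of the other 2 EHL arrays. None of the added miRNAs was called. The signals of miR-486 lay between 22 and 34, near the dimmest of each array, and their distance from the background was not measured.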
